A study of Rattus norvegicus with 47 samples.

Results

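S100a8 and S100a9 were followed on 47 rat brain arrays, where 1 probe set of the 8799 carries the symbol S100a8 (rc_AA957003_at) and 1 carries S100a9 (L18948_at). These are 2 of the 4737 genes that the annotation names, and both were chosen by their symbol in the platform's annotation, a rule that uses no measured value, although the pair was picked with earlier results of these data known. Total RNA had been extracted with Trizol from cortex or hippocampus on the side ipsilateral or contralateral to a brain injury, and each array gives 1 linear intensity (signal) per probe set. There were 7 ipsilateral and 8 contralateral cortex arrays at 4 h after injury, 8 and 8 cortex arrays at 24 h, and 7 and 9 hippocampus arrays at 4 h, with "HC" in the labels read as hippocampus. All 6 groups carry the same treatment entry, of the type "wait", and no label tells sham operations from injuries. The sides therefore cannot be read as injured against uninjured tissue from the labels. They give no strain, age or injury method, and they do not say whether each array is its own animal. P-values here therefore reflect array-to-array spread, which may be technical. As a check of the tissue, 14 of the 14 brain cell markers tested, of neurons, astrocytes and oligodendrocytes, were above the signal floor on every array.

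S100a8 and S100a9 are small calcium-binding proteins with EF-hand domains that pair into the heterodimer calprotectin, one of the most abundant proteins of the neutrophil cytosol. Released from activated neutrophils and monocytes, they act as alarmins through the receptors Tlr4 and Ager (RAGE), and they bind zinc and manganese. Neutrophils enter injured brain tissue from the blood, and blood left in the tissue also brings red cells, whose haemoglobin transcript Hbb was therefore followed on the same arrays.

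In the RefSeq annotation of the rat assembly GRCr8, S100a8 and S100a9 are direct neighbours, flanked by S100a7a on one side and Pglyrp4 on the other. The S100a9 promoter is shown because it is the only control sequence of the pair in the reference table used here, with the 250 bases before the annotated start read 5′ to 3′ along the gene's strand (minus strand, GRCr8 chr2:178490623-178490872, RefSeq). Capitals mark the matches to motifs searched on both strands.
S100a9 promoter: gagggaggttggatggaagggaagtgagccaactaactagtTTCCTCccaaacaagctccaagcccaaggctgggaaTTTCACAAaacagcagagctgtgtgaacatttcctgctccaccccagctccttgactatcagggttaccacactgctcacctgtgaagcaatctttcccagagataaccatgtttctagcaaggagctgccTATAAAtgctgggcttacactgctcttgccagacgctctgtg
The C/EBP-type motif TTNNGNAA, the kind bound by factors of granulocyte development, had 1 match, on the opposite strand with its leftmost base at position -173 from the start. The PU.1/ETS-type motif GAGGAA, the kind bound by a master regulator of myeloid cells, had 1 match on the opposite strand at -209, and the TATA-type motif TATAAA had 1 match on the gene's strand at -42. These letters are common: among 33469 promoters of the table, 37.2% held the C/EBP-type motif, 23.3% the PU.1/ETS-type motif and 12.9% the TATA-type motif. The NF-kB-type motif (0.314% of promoters) and the AP-1-type motif TGANTCA (6.34%) had no match in this window. The matches did not overlap each other.

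Both transcripts were dim throughout. S100a8 had signals from 6.75 to 528 with a median of 108, and stood above the floor of 185.8, the 25th percentile of all values, on 14 of 47 arrays. S100a9 had signals from 22.6 to 545 with a median of 142, and stood above the floor on 18 of 47 arrays. On their own arrays S100a8 ranked at a median percentile of 16.9 and S100a9 at 20.4, whereas Hbb ranked between 97.5 and 99.7. For tests, every value below the floor was set to it, followed by log2. Differences on this scale can be far from those of unfloored signals, mostly smaller, and values at the floor have no order.

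In ipsilateral cortex at 4 h, S100a8 had its highest group level. Its signals ran from 51.6 over a median of 316 to 528 there, and from 46.4 over 131 to 298 in contralateral cortex. The groups overlapped, with 4 of 7 ipsilateral arrays above every contralateral one and the lowest ipsilateral array close to the lowest contralateral one. At 24 h ipsilateral cortex ran from 36.6 over 121 to 240, and contralateral cortex from 6.75 over 34.3 to 127. Here 4 of 8 ipsilateral arrays lay above every contralateral array, yet only 2 of 8 ipsilateral and 0 of 8 contralateral arrays exceeded the floor. In hippocampus at 4 h the ipsilateral arrays ran from 27.8 over 154 to 258, and the contralateral arrays from 13.8 over 64.2 to 356, where the single highest hippocampal array was a contralateral one. In log2 floored signal the groups ordered as ipsilateral cortex at 4 h (8.17 ± 0.572, SD, n = 7), ipsilateral hippocampus (7.71 ± 0.217, n = 7), contralateral cortex at 4 h (7.67 ± 0.24, n = 8), contralateral hippocampus (7.64 ± 0.313, n = 9), ipsilateral cortex at 24 h (7.60 ± 0.136, n = 8) and contralateral cortex at 24 h (7.54 ± 0, n = 8, all at the floor). Each step in this order was smaller than the larger of the neighbouring SDs.

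S100a9 was likewise highest in ipsilateral cortex at 4 h. Its signals ran from 72.5 over a median of 287 to 545 there, and from 46.3 over 60.8 to 327 in contralateral cortex. The contralateral arrays fell into 6 that lay below every ipsilateral array and 2, arrays 12 and 14, that lay among them, while 3 of 7 ipsilateral arrays exceeded all of the contralateral ones. At 24 h ipsilateral cortex ran from 51 over 143 to 473 and contralateral cortex from 22.6 over 124 to 292. Both sides had low arrays, and 3 of 8 ipsilateral arrays lay above the contralateral range. In hippocampus the ipsilateral arrays ran from 24 over 167 to 415 and the contralateral arrays from 38.3 over 130 to 251, overlapping widely with 2 ipsilateral arrays on top. The groups ordered as ipsilateral cortex at 4 h (8.31 ± 0.633, SD, n = 7), ipsilateral cortex at 24 h (7.91 ± 0.545, n = 8), ipsilateral hippocampus (7.86 ± 0.473, n = 7), contralateral cortex at 4 h (7.72 ± 0.339, n = 8), contralateral cortex at 24 h (7.69 ± 0.279, n = 8) and contralateral hippocampus (7.62 ± 0.162, n = 9), again with each step smaller than the larger of the neighbouring SDs.

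**Figure D1:**
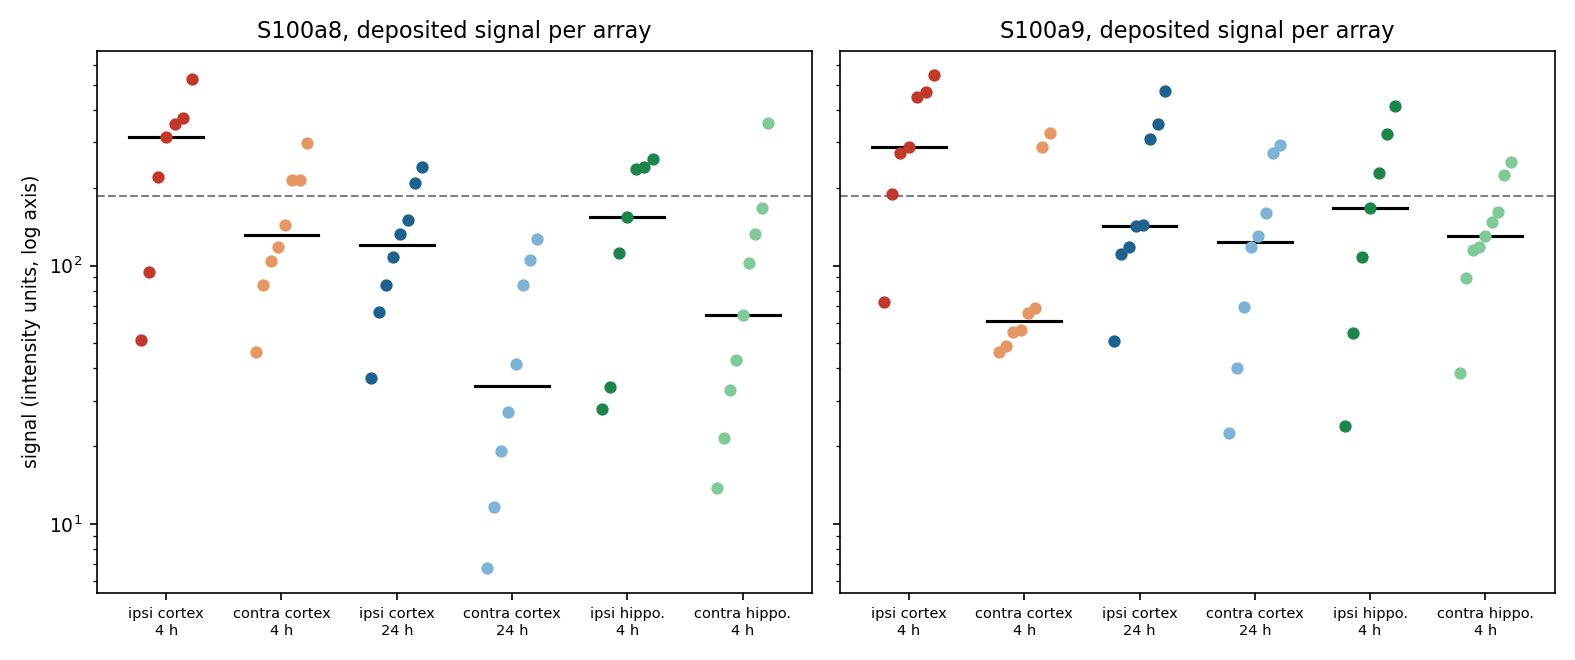
Deposited signal of S100a8 (left) and S100a9 (right) per array on a log axis, by group, in intensity units. Each point is 1 array, points within a group are sorted by height, the bar is the group's median and the dashed line the floor of 185.8; the medians of ipsilateral cortex at 4 h, 316 and 287, are the only group medians above it.

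The first comparison asked whether the side of the injury carried more of these transcripts. In cortex at 4 h, S100a8 was 0.50 higher ipsilaterally on the log2 scale (SE 0.154, 1.41-fold, 95% interval 0.19 to 0.81) and S100a9 was 0.59 higher (SE 0.214, 1.5-fold, 0.16 to 1.02), and neither passed the test (limma adjusted p = 0.337 and 0.481). No probe set of the 7503 tested passed there (0%), against 558 (7.44%) at an unadjusted p under 0.05. The unadjusted exact permutation test of each single value gave p = 0.0371 for S100a8 and 0.0458 for S100a9. With no floor the differences were 0.67 for S100a8 (unadjusted exact permutation p = 0.182) and 1.5 for S100a9 (0.0159). In these bulk extracts, fewer cells of a type and less RNA per cell cannot be told apart.

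At 24 h the side differences were 0.07 (SE 0.149, 95% interval -0.23 to 0.37) for S100a8 and 0.23 (SE 0.207, -0.19 to 0.64) for S100a9 (limma adjusted p = 0.990 and 0.897), where 0.107% of probe sets passed. Without a floor the 24 h difference of S100a8 was 1.21 (limma adjusted p = 0.549, unadjusted exact permutation p = 0.019), a value resting on signals that are nearly all under the floor, and that of S100a9 was 0.61 (limma adjusted p = 0.84). Array 37 carried much of both floored values: without it they were 0.02 for S100a8 and 0.09 for S100a9. In hippocampus they were 0.07 (SE 0.15, -0.24 to 0.37) and 0.24 (SE 0.208, -0.18 to 0.66), with limma adjusted p = 0.793 and 0.439, where 16.1% passed. Without a floor these were 0.63 and 0.11 (limma adjusted p = 0.391 and 0.892). With it, the S100a9 value was 0.10 without array 24, and the S100a8 value ranged from 0.02 without array 17 to 0.17 without array 23. The change of the cortical side difference between 4 h and 24 h was -0.43 (SE 0.214) for S100a8 and -0.36 (SE 0.298) for S100a9 (limma adjusted p = 0.880 and 0.968; 0% of probe sets passed, 5.61% at an unadjusted p under 0.05), and the S100a8 value turned positive without a floor (0.54). The hippocampal side difference was -0.43 (SE 0.215) from the cortical one for S100a8 and -0.34 (SE 0.299) for S100a9 (limma adjusted p = 0.236 and 0.529; 4.18% passed). So the side difference was not shown to depend on time or region for either gene.

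S100a8 fell in ipsilateral cortex between 4 h and 24 h, by 0.57 on the log2 scale (SE 0.154, 1.48-fold, 95% interval -0.88 to -0.26, limma adjusted p = 0.00603). All 8 arrays at 24 h lay below the median at 4 h, though the ranges overlapped. In this comparison 19.3% of probe sets passed, 7.92% as falls. With the floor at the 10th percentile the fall was -0.92 (limma adjusted p = 0.161), without a floor -0.90 (0.227), and with only the compared groups in the fit -0.57 (0.0561), so the call needs the higher floor and the pooled spread. S100a9 differed by -0.39 (SE 0.214, -0.82 to 0.04, limma adjusted p = 0.208), with 3 of 8 arrays at 24 h above the median at 4 h. In contralateral cortex the time differences were -0.14 (SE 0.149) for S100a8 and -0.03 (SE 0.207) for S100a9 (limma adjusted p = 0.565 and 0.937), where 21.5% of probe sets passed, and the S100a9 value turned positive with the lower floor (0.42). Without the floor, contralateral S100a8 was -1.43 (limma adjusted p = 0.0292), a value resting on signals under the floor.

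S100a8 was also lower in ipsilateral hippocampus than in ipsilateral cortex at 4 h (-0.47, SE 0.159, 1.38-fold, 95% interval -0.79 to -0.15, limma adjusted p = 0.0236). This comparison shares its ipsilateral cortex arrays with the time comparison. No hippocampal array exceeded the cortical median, and 27.5% of probe sets passed, 10.8% as lower. Leaving out ipsilateral cortex array 6, 7 or 8 ended the call, with differences between -0.57 and -0.32 over all single omissions, and the exact permutation test gave p = 0.074. The lower floor (-0.73, limma adjusted p = 0.27), no floor (-0.82, 0.253), the compared groups alone (-0.47, 0.137) and the array's 10th percentile of signal as a covariate (-0.41, 0.0769) ended it as well. S100a9 differed by -0.45 (SE 0.221, limma adjusted p = 0.131), and passed without ipsilateral cortex array 4 (limma adjusted p = 0.0485) or ipsilateral hippocampus array 24 (0.0445). On the contralateral side the regions differed by -0.03 (SE 0.145) for S100a8 and -0.10 (SE 0.201) for S100a9 (limma adjusted p = 0.892 and 0.735; 33.7% passed), and the S100a9 value turned positive with the lower floor (0.57).

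**Figure D2:**
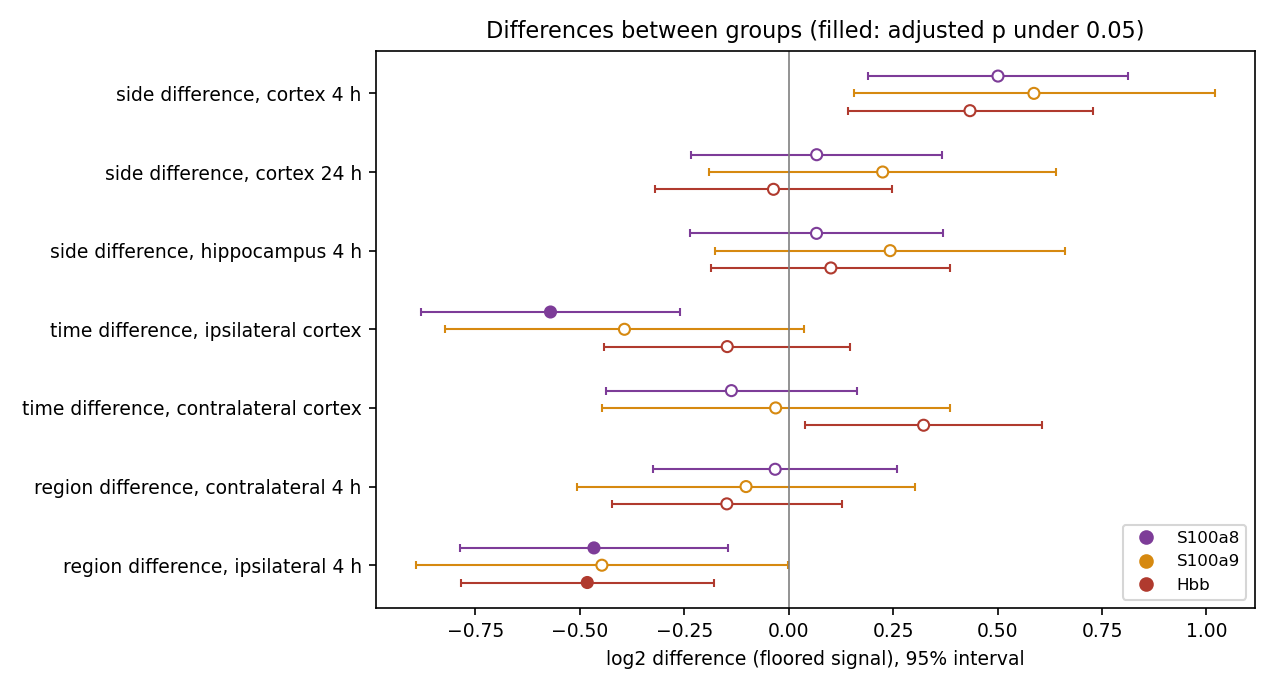
Log2 differences of floored signal (x axis) in 7 comparisons (y axis) for S100a8, S100a9 and Hbb, ipsilateral minus contralateral, 24 h minus 4 h or hippocampus minus cortex. Points are the limma estimates, bars their 95% intervals and filled points an adjusted p under 0.05, which S100a8 reached in ipsilateral cortex over time (-0.57) and both S100a8 (-0.47) and Hbb (-0.48) in the ipsilateral region difference.

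The spread between arrays was compared between the sides in cortex at 4 h. The SDs of log2 floored signal were 0.572 ipsilaterally and 0.24 contralaterally for S100a8, and 0.633 and 0.339 for S100a9, but the floor sets 5 of 8 contralateral arrays for S100a8 and 6 of 8 for S100a9 to a single value and so narrows that side. Without the floor the mean absolute deviation from the group median differed by 0.19 (SE 0.306) for S100a8 and 0.02 (SE 0.337) for S100a9, with limma adjusted p = 0.997 for both. With the floor these differences were 0.32 and 0.33, and neither passed across all probe sets (limma adjusted p = 0.756 and 0.983), where 0.0267% passed. The exact permutation test of each single value gave an unadjusted p of 0.0418 for S100a8 and 0.0873 for S100a9. At 24 h and in hippocampus the limma adjusted p was between 0.999 and 1 for both genes, with 0.04% and 0% of probe sets passing.

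Hbb, the beta chain of haemoglobin, took a similar course in part. Its signals in cortex at 4 h ran from 29149 over a median of 53523 to 90259 ipsilaterally and from 32289 over 41374 to 50561 contralaterally. The side difference was 0.43 (SE 0.146, limma adjusted p = 0.429), with 4 of 7 ipsilateral arrays above the contralateral range. Other globin probe sets gave 0.35 (Hbb-b1), 0.44 (Hba-a3) and 0.385 (shared by Hba-a1 and Hba-a2) there. The probe sets of Hbb and Hbb-b1 may share probes, which was not tested. A probe set that names Hbb among several genes gave only 0.08 (limma adjusted p = 0.833). In ipsilateral hippocampus Hbb ran from 32653 over 37982 to 56493 and was lower than in ipsilateral cortex (-0.48, SE 0.151, limma adjusted p = 0.0133), so it moved with S100a8 in that comparison. The probe set naming several genes was lower in hippocampus on both sides, ipsilaterally (-0.23, limma adjusted p = 0.00663) and contralaterally (-0.20, 0.00615). With each array's Hbb as a covariate, the ipsilateral region difference of S100a8 was -0.34 (limma adjusted p = 0.152) and no longer passed. From 4 h to 24 h in ipsilateral cortex Hbb differed by -0.15 (SE 0.146, limma adjusted p = 0.534), and the fall of S100a8 was -0.53 with Hbb as a covariate (limma adjusted p = 0.00982).

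Array by array, S100a9 and Hbb were high together on some ipsilateral arrays. In ipsilateral cortex at 4 h, array 8 had the highest S100a9 signal, 545, with an Hbb signal of 76633. Array 5 had 470 with the highest Hbb signal of all, 90259, and array 7 had 451 with 70002. Array 4 had the lowest S100a9 signal of the group, 72.5, at an Hbb signal of 48200. Pearson's r of the log2 values was 0.75 in these 7 arrays (exact permutation p = 0.056, Spearman's rho 0.82, exact permutation p = 0.0341) and 0.98 without arrays 1 and 5, which lie farthest from the Hbb median. In ipsilateral hippocampus r was 0.91 (exact permutation p = 0.0143; rho 0.71, p = 0.0952), but it was -0.12 without arrays 21 and 24, so it rests on those arrays. The other groups gave r between -0.36 and 0.01.

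Over all 47 arrays, on deviations from the group means, S100a9 and Hbb had r = 0.37 (permutation p = 0.0466, rho 0.08 with permutation p = 0.63; r = 0.34 without arrays 1 and 5). S100a8 and Hbb had r = 0.27 (permutation p = 0.271, rho 0.22 with permutation p = 0.163; r = 0.41 without arrays 1 and 5). The 2 calgranulins had r = 0.40 with each other (permutation p = 0.0305, rho 0.40 with permutation p = 0.0099; r = 0.35 without arrays 24 and 37). Of the 19 relations computed, none passed Benjamini-Hochberg adjustment, with adjusted permutation p-values of 0.177, 0.617 and 0.17 for these 3. Leaving out array 5, where S100a8 was at 94 while S100a9 was at 470, brought the calgranulins' r to 0.53 (adjusted permutation p = 0.0123). Without the floor their r was 0.15, and the r with Hbb was 0.17 for S100a9 and 0.16 for S100a8. Within groups, the calgranulins' r was 0.86 in contralateral cortex at 4 h (exact permutation p = 0.0357, adjusted 0.17), where S100a9 was above the floor on arrays 12 and 14 only. It was 0.81 in ipsilateral cortex at 24 h (exact permutation p = 0.0357, adjusted 0.17), where S100a8 was above the floor on arrays 37 and 40 only. In ipsilateral cortex at 4 h it was 0.40, and 0.53 without arrays 5 and 8. In ipsilateral hippocampus it was 0.53, but -0.25 without arrays 21 and 24. In contralateral hippocampus it was -0.18, with S100a8 above the floor on array 23 only. In contralateral cortex at 24 h S100a8 was at the floor on every array and gave no r.

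**Figure D3:**
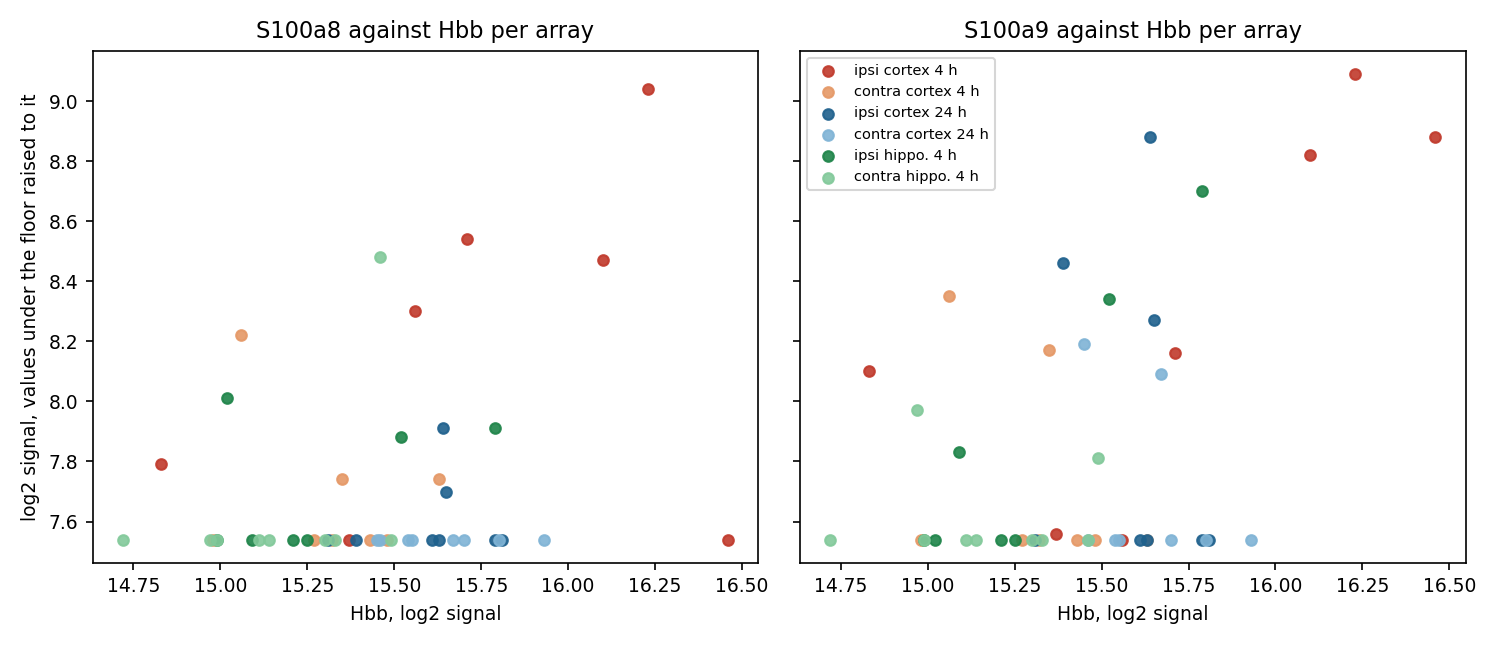
Log2 signal of S100a8 (left) and S100a9 (right), with values under the floor raised to it, against log2 Hbb signal on the same array, 1 point per array, coloured by group. The row of points at the bottom holds the arrays at the floor, 33 for S100a8 and 29 for S100a9; the 3 arrays with the highest Hbb all belong to ipsilateral cortex at 4 h, and S100a9 is high on each of them.

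Likeness was ranked over genes, each read from its brightest tested probe set that names 1 gene; probe sets with no name, several names or a brighter partner were left out, so the named genes hold ranks 2 to 19 of 7502 probe sets for S100a9 and 3 to 33 for S100a8. Under this rule the genes whose deviations from the group means were most like those of S100a9 over the 47 arrays were Ccl3 (r = 0.58) and Ccl2 (r = 0.56), chemokines that attract leukocytes. They were followed by Adm (r = 0.56), which encodes the vasodilator peptide adrenomedullin, Nfkbia (r = 0.55), the inhibitor of NF-kB, and Trmt6 (r = 0.52), a tRNA methyltransferase subunit. Fos (r = 0.51), an immediate early transcription factor, Pdgfb (r = 0.50), a growth factor chain, and Olr1 (r = 0.50), a receptor for oxidised LDL, completed the 8. Ccl3 was above the floor on 13 of 47 arrays, Olr1 on 16 and Adm on 19, so these too lay mostly at the floor. S100a8 itself ranked 102 of 7502 probe sets by this measure and Hbb 136. Without the floor, a reading added after the values were seen, r was 0.35 for Ccl3, 0.47 for Ccl2, 0.33 for Adm, 0.60 for Nfkbia and 0.20 for Olr1.

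Under the same rule those most like S100a8 were Htt (r = 0.57), LOC102549726 (0.50), Cyp7b1 (0.49), Cnn1 (0.49), Tap2 (0.49), Adm (0.47), Snai2 (0.46) and Bcl2l15 (0.46). Htt encodes huntingtin, Cyp7b1 an oxysterol hydroxylase, Cnn1 a smooth muscle calponin and Tap2 a peptide transporter of antigen presentation. Adm was the only gene among the 8 of both. S100a9 ranked 99 for S100a8, and Hbb 498. Without the floor the r of Htt was 0.23 and that of Adm 0.50. Snai2 was above the floor on 7 arrays, Adm on 19 and Cnn1 on 23. These coefficients describe 47 arrays, most of which hold S100a8 and S100a9 at the floor.

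**Figure D4:**
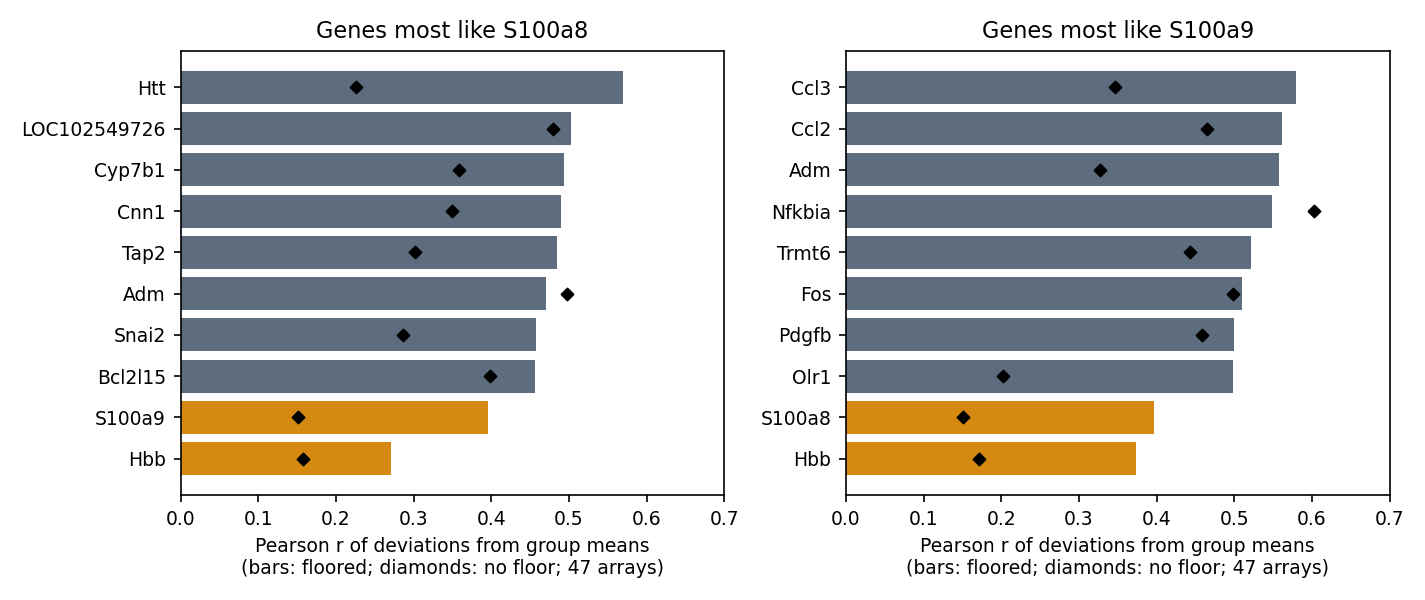
Pearson r of deviations from the 6 group means over 47 arrays (x axis) for the 8 genes most like S100a8 (left) and S100a9 (right), with the other calgranulin and Hbb below in orange. Bars use floored values and diamonds values without the floor; Ccl3 leads for S100a9 at 0.58 with a diamond at 0.35, and Htt for S100a8 at 0.57 with a diamond at 0.23.

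Other transcripts of neutrophils and myeloid cells were read beside the calgranulins. The list held 41 genes, of which 20 were on the array under their symbol and 17 were tested; Mpo, Elane, Camp and Csf3r are among those not analysed here. The 20 genes spanned the whole range of detection. Fut4 was above the floor on 0 arrays, Mmp8, neutrophil collagenase, on 3 and Cebpe, a factor of granule gene expression, on 4, and these were not tested. Defa5, a defensin, was above it on 7 arrays, the chemokine receptor Cxcr2 on 21 and the defensin RatNP-3b on 25. Padi4 was above it on 30 arrays, Mmp9 on 32, Lcn2 on 36, Cxcr1 on 46 and Lyz2 on 47, and some of these are also expressed by cells other than neutrophils. The summed signal of the 20 genes ran from 14015 over a median of 17870 to 22630 in ipsilateral cortex at 4 h and from 13501 over 15510 to 17960 on the contralateral side. At 24 h it ran from 13477 over 15735 to 20767 and from 11850 over 13208 to 16090. The ipsilateral medians were the higher ones in cortex at both times, and the ranges overlapped. These sums are carried largely by Cd24 (median signal 5828) and Lyz2 (2892), so they say little of the dim granule genes. In hippocampus it ran from 12434 over 14571 to 17807 ipsilaterally and from 14879 over 16397 to 17891 contralaterally.

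In cortex at 4 h, 14 of the 17 tested genes had a higher ipsilateral mean, with a median log2 difference of 0.07 against -0.00235 over all tested probe sets (49.3% of which were higher), and none passed. Lcn2, a granule protein that binds siderophores, was at 0.55 (SE 0.441, limma adjusted p = 0.825), and Cxcr1 at 0.50 (SE 0.4, 0.825). Cxcr2 (0.07), Defa5 (0.01) and RatNP-3b (0.00152) were close to no difference, and Itgam was at -0.05. At 24 h 10 of 17 were higher (median 0.08 against -0.02), against 43.8% of all probe sets, and none passed. The largest differences were those of Lcn2 (0.96, limma adjusted p = 0.589), Mmp9 (0.72, 0.348) and Fcgr2b (0.69, 0.387). At 4 h these 3 genes were at 0.55, 0.15 and 0.43. Among the 7 genes that were lower ipsilaterally at 24 h were Il1r2 (-0.27), RatNP-3b (-0.24), Cxcr1 (-0.06) and Defa5 (-0.03). In hippocampus 6 of 17 were higher (median -0.10 against -0.04) and 3 fell ipsilaterally, near the share of falls over all probe sets (10.8%): Padi4, the enzyme that citrullinates histones in neutrophils (-0.68, limma adjusted p = 0.0114), Il1r2, a decoy receptor for interleukin-1 (-0.71, 0.0427), and Ptafr, the receptor of platelet-activating factor (-0.52, 0.047). Lcn2 (0.55, limma adjusted p = 0.391) and Mmp9 (0.44, 0.211) were higher ipsilaterally in hippocampus and did not pass. The array's 10th percentile of signal differed between these sides too, from 36.4 over 41.2 to 56.7 ipsilaterally and from 45.8 over 58.8 to 98.9 contralaterally. With it as a covariate, 5 probe sets rather than 1207 passed in that comparison, which bears on every list described for hippocampus here. From 4 h to 24 h in ipsilateral cortex, where S100a8 fell, 0 of the 17 passed in either direction (median -0.02 against 0.03). In the ipsilateral region difference, 2 of 17 were lower in hippocampus, near the share over all probe sets (10.8%): Lyz2, lysozyme (-0.76, limma adjusted p = 0.00632), and Padi4 (-0.59, 0.0223).

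Leukocyte recruitment genes, 16 tested, included chemokines and endothelial adhesion molecules. In cortex at 4 h 12 of 16 were higher ipsilaterally, against 49.3% of all probe sets, with a median of 0.31, and none passed. The 3 with the largest differences were Ccl2 (1.76, SE 0.564, limma adjusted p = 0.404), Ccl3 (1.33, SE 0.434, 0.42) and Icam1 (1.22, SE 0.281, 0.134), the last an adhesion molecule that neutrophils bind on endothelium. At 24 h 9 of 16 were higher (median 0.05), against 43.8% of all probe sets, and none passed. In hippocampus 6 of 16 were higher (median -0.27, against -0.04 and 44.8% higher over all probe sets) and 5 fell ipsilaterally, where 10.8% of all probe sets fell, among them Cxcl6, a neutrophil-attracting chemokine (-1.12, limma adjusted p = 0.00403), and C5ar1, the receptor of complement C5a (-0.73, 0.0013). Ccl2 (0.93, limma adjusted p = 0.242) and Ccl3 (0.86, 0.153) were higher ipsilaterally in hippocampus and did not pass. In ipsilateral cortex between the times, 1 of 16 fell and 1 rose, against 7.92% and 11.4% of all probe sets: Ccl3 fell (-1.25, limma adjusted p = 0.0344) and C5ar1 rose (0.44, 0.034). Icam1 was the only one of 16 that was lower in ipsilateral hippocampus than cortex (-0.79, limma adjusted p = 0.0353), where 10.8% of all probe sets were.

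Of the receptors and signalling partners of the calgranulins, 10 were tested. None passed in any side comparison. Over all probe sets 0% passed in cortex at 4 h, 0.107% at 24 h and 16.1% in hippocampus. In cortex 6 of 10 were higher at 4 h (median 0.11) and 6 at 24 h (median 0.02), against 49.3% and 43.8% of all probe sets. In hippocampus 3 of 10 were higher (median -0.14), against 44.8%. Cyba, a subunit of the phagocyte oxidase, had the largest difference at 24 h (1.47, limma adjusted p = 0.122) and in hippocampus (0.985, 0.0761). Ager, the receptor RAGE, was at -0.30 in cortex at 4 h (SE 0.22, limma adjusted p = 0.805), and the cytokine Il1b at 0.70 (SE 0.33, 0.663). Between the times in ipsilateral cortex 1 of 10 rose and 2 fell, against 11.4% and 7.92% of all probe sets: Stat3, a transcription factor of cytokine signalling, rose by 1.18 (limma adjusted p = 0.00107), Nfkbia fell (-0.74, 0.00538) and Bsg, a membrane glycoprotein that binds S100a9, fell (-0.49, 1.98e-06). Bsg was also lower in ipsilateral hippocampus than in ipsilateral cortex (-0.53, limma adjusted p = 1.51e-07), and Hmgb1, another alarmin, was higher there (0.35, 0.0284), in a comparison where 10.8% of all probe sets were lower and 16.7% higher.

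The S100 family had 7 tested genes, the calgranulins among them. Their ipsilateral means in cortex at 4 h were higher for 5 of 7, the calgranulins included, against 49.3% of all probe sets, and none passed. S100a9 and S100a8 led, followed by S100a10, the partner of annexin A2 (0.44, SE 0.245, limma adjusted p = 0.724). S100b and S100g were at 0.15 and 0.14, and S100a4 and S100a1 at -0.20 and -0.06. At 24 h the largest difference was that of S100a4 (0.85, SE 0.297, limma adjusted p = 0.353). S100a4, a family member of motile and fibroblast-like cells, had signals from 190 over a median of 547 to 830 in ipsilateral cortex at 4 h and from 468 over 1207 to 2733 at 24 h. It rose by 1.11 (SE 0.308, limma adjusted p = 0.00706) over the interval in which S100a8 fell, with overlapping ranges, where 11.4% of all probe sets rose. In hippocampus 4 of 7 were higher ipsilaterally, against 44.8% of all probe sets. Only S100a1 passed there, as lower (-0.24, limma adjusted p = 0.0471), where 10.8% of all probe sets fell. The astrocyte gene S100b was far above the floor on every array.

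Haemoglobin and erythroid genes had 7 tested members. In cortex at 4 h 6 of 7 were higher ipsilaterally (median 0.43), against 49.3% of all probe sets, and none passed. Alas2, the first enzyme of erythroid haem synthesis, was at 0.53 (SE 0.165, limma adjusted p = 0.348). At 24 h 2 of 7 were higher (median -0.04), against 43.8% of all probe sets, and none passed. In hippocampus 2 of 7 were higher (median -0.18), against 44.8% of all probe sets. There 2 fell ipsilaterally, against 10.8% of all probe sets, Hbe1 (-0.75, limma adjusted p = 0.0241) and Slc4a1, the anion exchanger of red cells (-0.67, 0.00487). In the ipsilateral region difference 0 of 7 were higher in hippocampus, against 51.6% of all probe sets, and 3 passed as lower, against 10.8%: Hbb, Hbb-b1 and Hbg1 (limma adjusted p = 0.0133, 0.00593 and 0.00772). The probe sets of these 3 globin genes all have names ending in "_f_at" and may share probes, which was not tested. They may therefore not be 3 independent readings in any count of this list. Between the times in ipsilateral cortex only Hbg1 passed among these 7 (-0.72, limma adjusted p = 0.00407), where 7.92% of all probe sets fell.

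**Figure D5:**
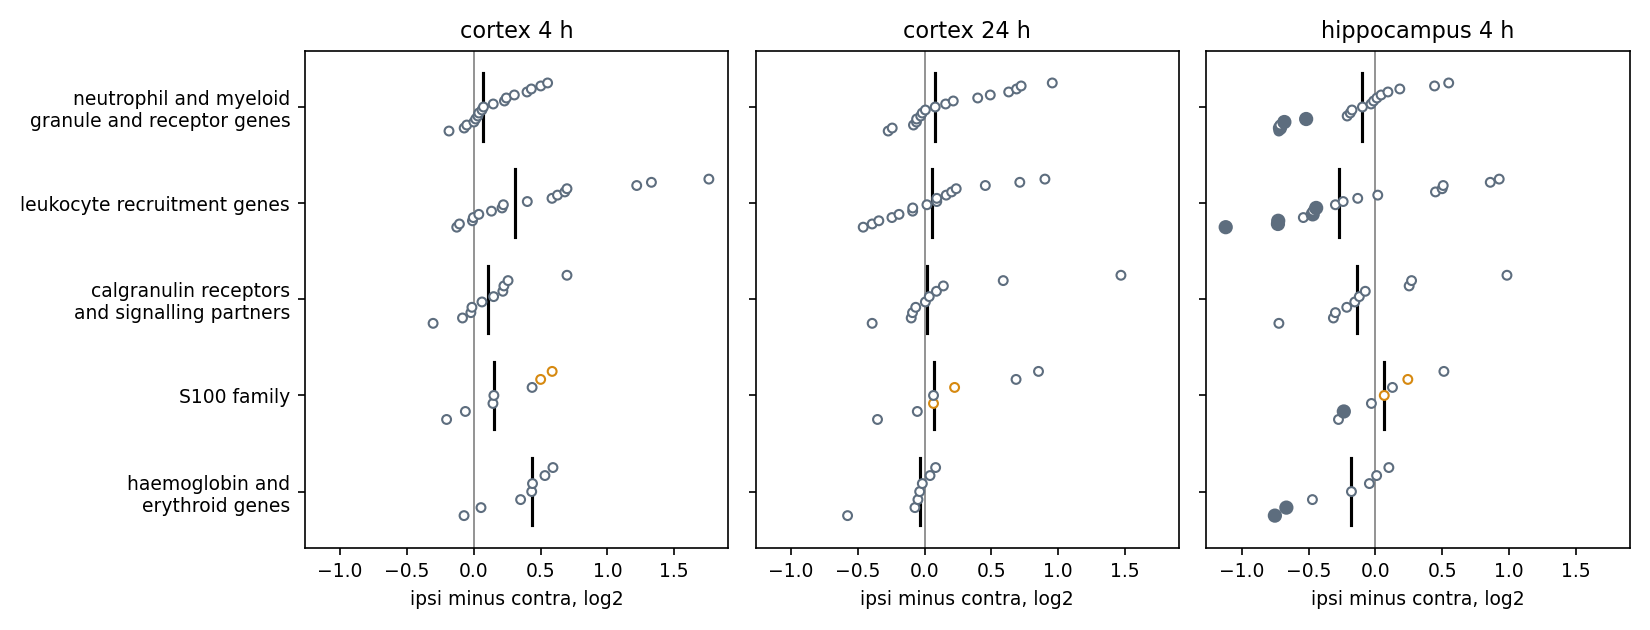
Log2 side differences (x axis, ipsilateral minus contralateral) of the tested genes in 5 lists (y axis) in cortex at 4 h, cortex at 24 h and hippocampus at 4 h. Each point is 1 gene, filled where the limma adjusted p is under 0.05, orange for S100a8 and S100a9, and the black bar is the list's median; in cortex at 4 h every point is open, with the recruitment genes' median at 0.31 and the erythroid genes' at 0.43.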

How the data were processed

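The deposited values are the authors' intensity per probe set on a linear scale; how probes were summarised, the scaling target and any batch are not stated by the labels or file headers used. Each array's 2%-trimmed mean lay between 2503 and 2504 and its median between 614.5 and 879.1, so no scaling was added. Symbols came from the platform annotation (7018 probe sets with 1 gene, 308 with several, 1473 with none).

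Values under the 25th percentile (185.8) were raised to it before log2. Probe sets above it on at least 7 arrays, without 59 controls, were tested (7503). In R 4.3.3, limma 3.58.1 (eBayes with intensity trend) fitted 6 group means over 47 arrays, two-sided, with Benjamini-Hochberg adjustment within each of 9 comparisons at 0.05. Spread was tested on absolute deviations from group medians. Single values had exact two-sided permutation tests. Correlations within groups had exact permutation tests, and those over 47 arrays 100000 permutations within groups. Files were read with the package data.table, version 1.17.8. The procedure was tested on simulated data. The number of arrays limits the precision. Sample numbers occur once each, so no pairing or block was used. Array 23, whose number falls outside the run of the contralateral hippocampus arrays, stayed in the group its label gives.

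Alternatives changed the floor (10th percentile, or none with a pseudocount of 16), filter, normalization, weights, covariates, groups fitted and single arrays. Members and gene lists were chosen with earlier results of these data known. Named were the members, Hbb, the 8 genes with the highest r to each member (brightest tested probe set per gene, 1 gene named), and in the side comparisons up to 3 genes per list with the largest difference; list genes that passed in other comparisons, and some list genes at the floor, were named after their values were seen. Some list genes with small or negative cortical side differences were also named after their values were seen. Each list gene was read from 1 probe set.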

Additional observations from a re-analysis of the deposited data

Results flagged for a closer look

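In 3 of the 17 groups in which 1 array could be set against the others for S100a8, S100a9 and Hbb, the highest array stood apart by Dixon's criterion on log2 floored signal, which chance meets in about 1 in 20 groups. All 3 concern S100a8, whose other arrays in these groups lay mostly at the floor, so that an array above it stands apart easily. Contralateral cortex array 14 at 4 h had a signal of 298 (gap over range 0.696, critical value 0.526). Ipsilateral cortex array 37 at 24 h had 240 (0.553, critical value 0.526), and it also had the highest S100a9 signal of its group, 473. Contralateral hippocampus array 23 had 356 and was the only array of its group above the floor (gap over range 1, critical value 0.493). Without array 23 the hippocampal side difference of S100a8 was 0.17, against 0.07 with it. Array 23, whose number breaks its group's run, had the highest 10th percentile of signal of all arrays, 98.9. Array 14 had the highest of its group, 72.2, whereas array 37, at 51.5, was below its group's highest of 55.9. Whether a raised background lifted S100a8 on these arrays was not tested.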

How the results depend on the processing

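Of 207 alternative values over 27 results, 184 kept direction and side of the threshold, as did all but 9 of 577 values with 1 array left out. Only the ipsilateral time and region differences of S100a8 had passed as reported. For the other results, keeping the side of the threshold meant only that they again did not pass. The 9 alternative values that lost a call all belong to those S100a8 differences. Most tested values of both genes lie at the floor, so the floor moved them most, and below it signals have little meaning. With the floor at the 10th percentile, signs turned for the change of the S100a8 side difference with time (0.0551), the contralateral region difference of S100a9 (0.57) and its contralateral time difference (0.42). With no floor these were 0.54, 0.46 and 0.24, and the side differences in spread turned to -0.25 (S100a8, 24 h), -0.091 (S100a8, hippocampus) and -0.10 (S100a9, 24 h). Covariates turned the contralateral region difference of S100a8 (0.00742, Hbb) and the contralateral time difference of S100a9 (0.00314, 10th percentile of signal). The ipsilateral region difference of S100a8 lost its call at -0.41 (10th percentile as covariate), -0.34 (Hbb as covariate), -0.47 (exact permutation, and compared groups alone), -0.73 (lower floor) and -0.82 (no floor). The ipsilateral fall of S100a8 with time lost it at -0.92 (lower floor), -0.90 (no floor) and -0.57 (compared groups alone). Values that did not pass as reported but fell under 0.05 elsewhere were the cortical side differences at 4 h under the unadjusted exact permutation test (0.50 for S100a8, 0.59 for S100a9), the spread difference of S100a8 there under that test (0.32), the side difference of S100a8 at 24 h under it with no floor (1.21) and the contralateral time difference of S100a8 with no floor (-1.43). With single arrays left out, the S100a8 region differences ranged from -0.137 to 0.0459 (contralateral, sign turned without array 14) and from -0.57 to -0.32 (ipsilateral, call lost without array 6, 7 or 8). Those of S100a9 ranged from -0.59 to -0.32 (ipsilateral, passing without array 4 or 24), its contralateral time difference from -0.103 to 0.0598 (turned without array 12 or 14), and the calgranulins' r from 0.29 to 0.53 (passing without array 5). The ipsilateral fall of S100a8 ranged from -0.68 to -0.43 and kept its call throughout. The cause of these changes was not tested. Probe sets past the threshold numbered up to 5 instead of 0 in cortex at 4 h, and 1 instead of 0 for the change with time (lower floor). In cortex at 24 h the 8 became 13 (10th percentile as covariate), 38 (array weights) or 0 (no filter, or compared groups alone). With the 10th percentile as covariate, 1207 in hippocampus became 5 (1881 with array weights) and 314 for hippocampus against cortex became 1 (64 with compared groups alone). With 1 array left out, these counts ranged from 0 to 2 (cortex at 4 h), 0 to 26 (24 h), 799 to 1446 (hippocampus) and 135 to 508 (hippocampus against cortex). Quantile normalization shifted the median of all probe sets by -0.10 in the contralateral region difference. No paired analysis was possible because each sample number occurs once.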

Other observations

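Microglia and macrophage genes, of which 14 were tested, were read in cortex at 24 h, when both calgranulins were mostly at the floor. There 12 of 14 had a higher ipsilateral mean, against 43.8% of all probe sets, with a median of 0.49 against -0.02 over all tested probe sets. Of the 14, 1 passed (0.107% of all probe sets did), Spp1, which encodes osteopontin (2.59, SE 0.583, limma adjusted p = 0.0498). Lgals3, galectin-3, was at 1.64 (SE 0.415, limma adjusted p = 0.111) and Cyba, a subunit of the phagocyte oxidase, at 1.47 (SE 0.39, limma adjusted p = 0.122). The call of Spp1 lies at the threshold, in a comparison whose 8 calls became 0 without the filter or with only the compared groups fitted, and ranged from 0 to 26 with 1 array left out.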
